A study of Mus musculus with 173 samples.

Results

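The libraries described here are the 35 C libraries with the highest and the 35 with the lowest level of the eCFP transcript. Another 72 C libraries lie between them, and the series has 172 libraries in all. Each library is the RNA of 1 cell from the dentate gyrus of C57BL/6 mice aged 8 to 12 weeks, and the aim of the series was to profile resting neural stem cells together with their direct progeny. The labels sort libraries only by a title letter (C, N or R) and a number, and they name no treatment, allele, animal, litter or date for any of them. The members were chosen by the measured level of the eCFP row, through the title numbers, which rank it: C1 to C35 form the eCFP-high end, C108 to C142 the eCFP-low end, and the 72 libraries between them were split into C36 to C71 and C72 to C107, 36 each. Because no animal is named and cells are not replicates, each group is treated as a single sample. There is therefore no test, and every SD below is the spread between cells of a group.

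Neural stem cells of the adult dentate gyrus lie in the subgranular zone, where most of them rest outside the cell cycle. They carry radial glia genes that they share with astrocytes. When a stem cell is activated it can give rise to intermediate progenitors, which divide, switch on the T-box factor gene Eomes and neuronal genes such as Sox11, and mature through Dcx-bearing neuroblasts into granule neurons. The cyan fluorescent protein eCFP is a reporter carried as a transgene. The published study is known for using a reporter under the control of Nestin gene sequences, which mark neural stem and progenitor cells, but the labels do not name the promoter. The row measures transcript, not fluorescence.

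The eCFP row chose the members, so its values are a description only. In C1 to C35 it ran from 12904.5 to 33810.8 TPM (a length-scaled share of the library's transcripts), with a median of 16158 TPM. In C108 to C142 it ran from 482 to 4708 TPM, with a median of 3257 TPM, and the ratio of the medians was 4.96. The level did not rise at any of the steps from C1 to C142, so the numbers are ranks of this row. At the upper edge C35 had 12904.5 TPM and C36, just outside, 12720.5 TPM, and at the lower edge C107, just outside, had 4843.91 TPM and C108 4707.65 TPM. The edges therefore fall within a continuous series and mark no gap. In 26 N libraries the row had a median of 44.6 TPM, and 6 of the 35 eCFP-low libraries lay below the highest N library (1306 TPM).

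**Figure D1:**
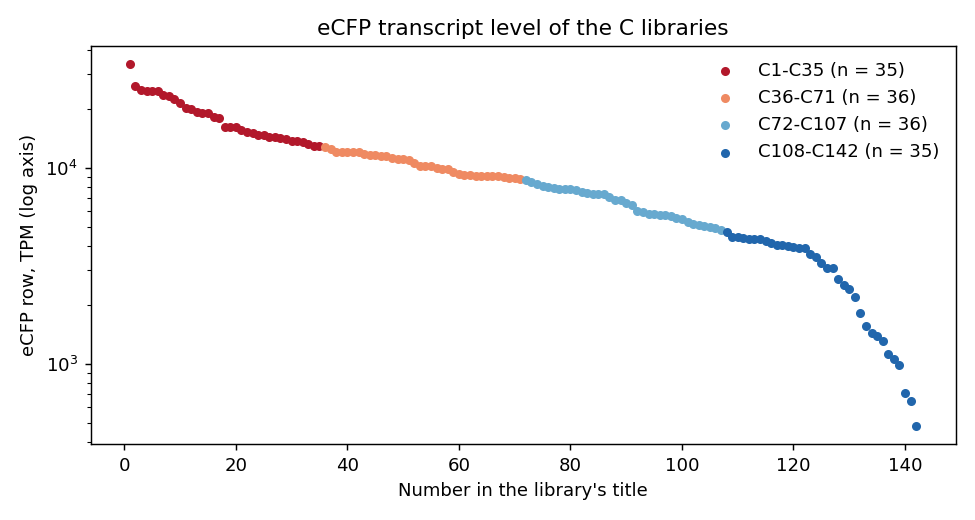
The eCFP row in TPM (log axis) against the number in the title of each C library, 1 point per library, coloured by group. The level falls at each step from 33810.8 TPM in C1 to 482 TPM in C142, with no gap at the edges of the groups.

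Library quality overlapped between the ends. A gene is called seen in a library at a TPM of at least 1: C1 to C35 had 2038 to 5700 genes seen (median 3616) and C108 to C142 had 2447 to 6742 (median 3941). Over all C libraries the number of genes seen had a Spearman rho of -0.14 with the eCFP row. The library with the lowest eCFP, C142, stands apart: its 50 highest genes took 94.6% of its total, against at most 43.4% in C1 to C35. The depth of sequencing is unknown because TPM keeps no counts.

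Markers of other cell types, of progenitors and of division were more frequent at the eCFP-low end. For each library the mean of log2(TPM + 1) was taken over lists of marker genes, and a library was called marked when that mean reached 4 for a list of another cell type or of the cell cycle. By this measure 30 of the 35 eCFP-high libraries carried no mark (85.7%, exact Clopper-Pearson 95% interval 69.7 to 95.2, counting error only), against 12 of the 35 eCFP-low libraries (34.3%, 19.1 to 52.2). The groups between them had 29 and 21 of 36. Marked libraries thus became more frequent along the eCFP series, with the largest number at its low end.

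Among the eCFP-low libraries 14 had a mark of another cell type: 4 of mature neurons, 4 of oligodendrocyte precursors, 2 of neuroblasts, 2 of endothelial cells, 2 of mural cells, 1 of microglia and 5 of erythroid cells, and 6 libraries carried 2 or more of these lists. In the eCFP-high end the 3 marked libraries of this kind had the erythroid list only, and 0 of 35 had any of the other lists, which allows a share of up to 10% (upper limit of the exact interval). A list of 11 oligodendrocyte genes and one of 4 inhibitory neuron genes marked 0 libraries at either end. Doublets were not called.

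The cell cycle lists marked 11 eCFP-low and 2 eCFP-high libraries. The S phase list (genes of DNA replication) marked 8 against 1, and the list for G2 and mitosis 6 against 1. The intermediate progenitor list reached 4 in 9 eCFP-low libraries and in 0 eCFP-high ones. At the high end the progenitor list ran from 0.50 to 3.06 with a median of 1.09, and at the low end from 0.10 to 6.87 with a median of 2.31, so 12 eCFP-low libraries lay above every eCFP-high one. Because the mixture differs, some differences between the ends are also given below for the 30 and 12 libraries without a mark. Where only the value for all libraries is given, the difference may have moved as well. The 12 unmarked eCFP-low libraries still included 3 with a progenitor level of at least 4 and C142. A second, smaller set therefore left those out too, and kept 30 eCFP-high and 8 eCFP-low libraries (C109, C115, C116, C122, C124, C134, C136 and C141), all chosen after their values were seen. These exclusions used the marker lists, so what they do to genes of those lists follows in part from the choice.

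**Figure D2:**
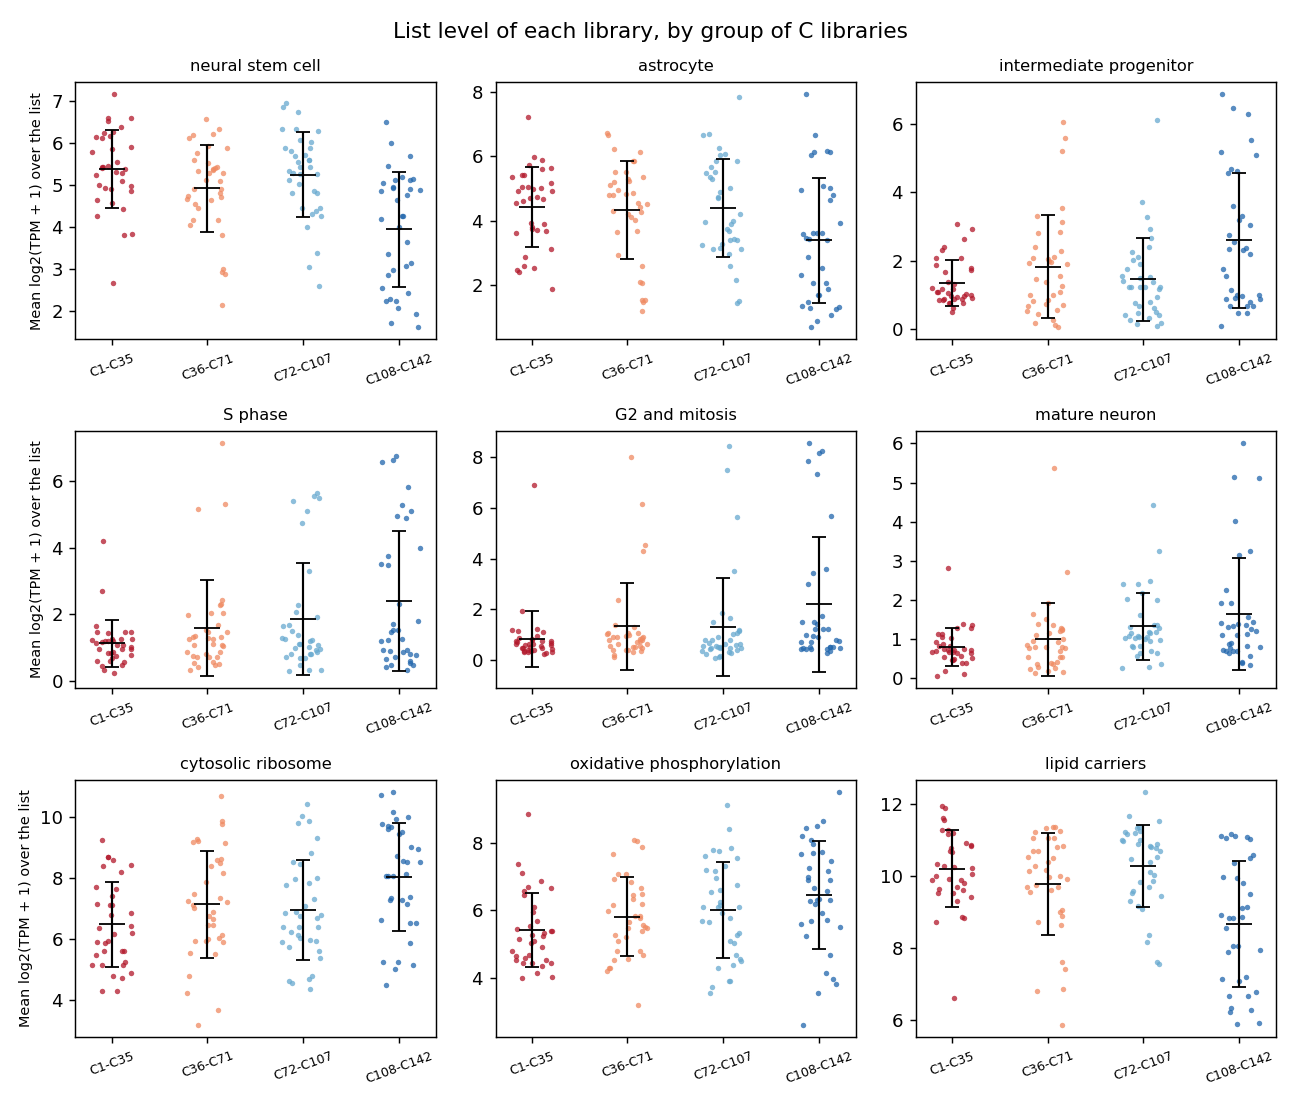
Mean log2(TPM + 1) over the genes of 9 lists in each C library, by group (35, 36, 36 and 35 libraries), with the mean and SD between cells as bars. The stem cell list of the eCFP-low end reaches further down than in the other groups (9 libraries below all of C1 to C35), and its progenitor, cell cycle and neuron lists reach further up.

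Over all genes the ends differed in both directions, more often with lower levels at the eCFP-high end. Of 12006 genes tested (seen in at least 5% of libraries, the eCFP row left out), 95 (0.791%) had a mean log2(TPM + 1) at least 2 higher in C1 to C35 and 222 (1.85%) at least 2 lower, 317 in either direction (2.64%). By the share of cells in which a gene was seen, 0.991% of genes were seen in at least 25 percentage points more of the eCFP-high cells and 375 (3.12%) in at least 25 points fewer. The median difference over all genes was -0.23, with 33.4% of genes higher and 66.5% lower at the high end. Values of single genes and lists below should be read against that shift. Counts of list members at least 2 apart over all libraries should be read against 0.791% of genes higher and 1.85% lower.

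The counts by level were smaller for the 2 middle groups, which the choice of the ends did not use, but the share of genes seen in more cells was close to that of the ends. C36 to C71 against C72 to C107 (median eCFP 10209 and 6712 TPM) had 21 genes at least 2 higher (0.175%) and 17 at least 2 lower (0.142%), and by share 0.85% of genes were seen in at least 25 points more cells of C36 to C71 and 0.491% in at least 25 points fewer, against 0.991% and 3.12% at the ends. The median over all genes was 0.03, with 52.6% of genes higher in C36 to C71. Of the 95 genes higher at the eCFP-high end, 41 were higher and 54 lower in the upper of the middle groups, and 1 passed 2 there. Of the 222 lower genes 3 passed 2 there. For the 95 genes the mean of the middle libraries lay a median of 68% of the way from the low end to the high end, and for the 222 genes 59.5%. The differences between the ends did not, on balance, carry over to the eCFP order of the middle libraries.

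Genes of neural stem cells were higher at the eCFP-high end. Of 19 measured genes of the list 17 had a higher mean there and 8 were at least 2 higher, against a background of 0.791% of all genes, and 0 were at least 2 lower. The median difference was 1.52. The level of the list averaged 5.38 ± 0.93 (n = 35) in C1 to C35, 4.93 ± 1.03 and 5.25 ± 1.01 in the middle groups (n = 36 each) and 3.95 ± 1.37 (n = 35) in C108 to C142. The 3 upper groups thus lay within 1 SD of each other. In C108 to C142, 9 libraries lay below every eCFP-high one, of which 4 had a mark of another cell type, 3 a cell cycle mark and 2 neither. The list median was 1.17 without marked libraries and 0.41 in the smaller set. There 11 of 19 members were higher and 1 at least 2 higher, beside 52.5% and 1.43% of all genes. The list level in that set averaged 5.49 ± 0.84 (n = 30) and 5.06 ± 0.29 (n = 8).

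Aldoc, the aldolase of astroglia and neural stem cells, had the highest difference of any list member. It ran from 31.6 to 20193 TPM with a median of 6208 TPM at the high end, and from 4.45 to 17290 TPM with a median of 67.7 TPM at the low end, a difference of 4.44 in mean log2(TPM + 1). The ranges overlapped, but 14 eCFP-low libraries lay below every eCFP-high one. The SD between cells was 1.89 at the high end, 2.81 and 2.84 in the middle groups and 4.11 at the low end. Without marked libraries the difference was 1.95. Among the 30 and 8 libraries left when progenitor libraries and C142 were left out as well, the means were 12.58 ± 1.46 and 12.91 ± 0.93, a difference of -0.32.

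Slc1a3, the glial glutamate transporter GLAST, ran from 158 to 16614 TPM (median 4862) in C1 to C35 and from 7.39 to 7577 TPM (median 748) in C108 to C142, a difference of 2.48. The groups overlapped, with 7 eCFP-low libraries below all eCFP-high ones. The difference was 1.17 without marked libraries and 0.09 in the smaller set. Hopx, a homeodomain protein of quiescent stem cells, had medians of 367 and 7.53 TPM, with 0 TPM as the lowest value at both ends and 1468 and 2029 TPM as the highest. Its difference was 2.30, then 0.59 without marked libraries and -1.24 in the smaller set. Gfap, the filament of astrocytes and radial stem cells, went the same way, with 2.38, 0.87 and -0.49. For these 4 genes the difference fell when marked libraries were left out. It fell again when the remaining progenitor libraries and C142, which carry no mark, were left out too.

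Id4, an inhibitor of basic helix-loop-helix factors that holds stem cells in quiescence, ran from 0 to 2071 TPM (median 319) at the high end and from 0 to 2648 TPM (median 2.68) at the low end. Its difference of 3.07 was 3.0 without marked libraries and 1.57 in the smaller set. Notch2, a receptor of the Notch pathway, had medians of 36.9 and 2.17 TPM and a difference of 3.01, which was 2.81 and 1.97 under the same exclusions. In both genes the groups overlapped, and Notch2 was at lower values than in any eCFP-high library in 7 eCFP-low ones. Ntrk2, the receptor for brain-derived neurotrophic factor, had medians of 317 and 71.6 TPM and a difference of 2.44, which was 0.41 in the smaller set. Lpar1, a lysophosphatidic acid receptor, and Sox9, a glial transcription factor, differed by 2.84 and 2.25.

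Nestin itself differed little. Nes ran from 0 to 199 TPM (median 0.23) in C1 to C35 and from 0 to 168 TPM (median 0) in C108 to C142, and it was seen in 14 and 10 of 35 libraries. The difference was 0.76, far below the SD between cells (2.37 and 2.03), and the Spearman rho of Nes with the eCFP row over all C libraries was 0.18. It was 1.31 without marked libraries and 1.65 in the smaller set, where Nes averaged 1.92 ± 2.45 and 0.27 ± 0.58. Vim, the filament partner of Nestin, differed by 0.46 (-1.11 in the smaller set) and Sox2, a transcription factor of neural stem cells, by 0.62, and neither passed 2 in the other sets. In a list of 7 measured genes from the factor families known to act on the Nestin neural enhancer, 4 were higher and 3 lower, with Pou3f3, a POU-domain factor, highest at 2.14.

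Astrocyte genes, and genes for transmitter uptake and ion balance, followed the stem cell list. Of 13 astrocyte genes 10 were higher at the eCFP-high end and 4 at least 2 higher (list median 0.72), and of 14 uptake and ion genes 11 were higher and 4 at least 2 higher (0.83). The lists share 7 genes, Gja1 among them. Mlc1, a membrane protein of astrocyte endfeet, had medians of 294 and 3.70 TPM and a difference of 3.71. Gja1, the gap junction protein connexin 43, differed by 2.77 with medians of 738 and 15.2 TPM, and the glutamate transporter Slc1a2 by 2.50. Without marked libraries the list medians were 1.01 and 1.18. In the smaller set the astrocyte list had 0 members at least 2 higher and 3 at least 2 lower (median 0.12), against 1.43% and 3.58% of all genes in that set. The uptake and ion list had 0 and 2 there (median 0.21). Mlc1 in the smaller set differed by 1.93 and Gja1 by -0.25. At the other end of the astrocyte list Fgfr3, a fibroblast growth factor receptor, had a difference of -0.87, and of -2.18 in the smaller set.

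The list of lipid carriers had the highest list median, 1.89, with 6 of 8 measured members higher. Of its members 3 were at least 2 higher (Clu, Apoe and Mt1) and 1 at least 2 lower. The list median was 1.31 without marked libraries and 0.44 in the smaller set. There 5 of 8 members were higher, with 1 at least 2 higher and 1 at least 2 lower. The list also holds genes that do not encode lipid carriers: Mt1, a metallothionein counted again in the next list, and Cst3 (1.96), the protease inhibitor cystatin C. Clu, the secreted lipid carrier and chaperone clusterin, ran from 2.36 to 12441 TPM with a median of 3489 TPM in C1 to C35. In C108 to C142 it ran from 3.32 to 7316 TPM with a median of 46.7 TPM. The difference of 4.39 was 4.55 without marked libraries and 3.16 in the smaller set, although the ranges overlapped throughout. Apoe, the main lipid carrier of glia, had medians of 3759 and 780 TPM and a difference of 2.88, then 2.28 and 1.11, with 7 eCFP-low libraries below all eCFP-high ones. The fatty acid binding proteins split: Fabp7, the form of radial glia, was 1.82 higher, while Fabp5 had a difference of -2.21 that was -2.41 and -2.69 in the other sets.

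Genes of redox defence and metal binding were partly higher. Of 18 measured members 12 were higher, 4 at least 2 higher and 0 at least 2 lower (list median 0.49). Gstm1, a glutathione transferase, ran from 26.9 to 12645 TPM (median 5078) at the high end and from 1.02 to 15054 TPM (median 271) at the low end, a difference of 4.31. The eCFP-low libraries spread over the whole range, and 13 of them lay below every eCFP-high one. Prdx6, a peroxiredoxin, had medians of 2058 and 275 TPM and a difference of 3.31. The metallothioneins Mt1 and Mt3 differed by 2.46 and 2.32. Prdx2, Txn1, Sod2 and Cat, other enzymes of peroxide and superoxide handling, had differences between -1.34 and -1.20. Gstm1 differed by 1.09 and Prdx6 by 1.48 in the smaller set. The list as a whole had 10 of 18 members higher there, 2 at least 2 higher and 2 at least 2 lower (median 0.10). Without marked libraries its median was 0.62.

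Creatine kinase B, which buffers ATP, was the gene whose level followed the eCFP row most closely. Among 2404 genes seen in at least 50% of the C libraries, Ckb had the highest Spearman rho with the row, 0.50 (over the 4 groups together, whose libraries share the class and the tissue, with no test). It ran from 462 to 18693 TPM (median 6857) in C1 to C35 and from 4.19 to 7061 TPM (median 2247) in C108 to C142. The difference was 2.56, and it was 2.23 without marked libraries. In the smaller set the means were 12.72 ± 0.68 (n = 30) and 11.31 ± 0.61 (n = 8), a difference of 1.41 that exceeded both SDs. Within the 72 middle libraries the rho was -0.04, so the relation was not seen there. Apoe (0.44), Prdx6 (0.42), Notch2 (0.39) and Gstm1 (0.38) came next over all C libraries, and between -0.00 and 0.15 in the middle.

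Surface and matrix genes and genes of fat use lay mostly higher. Of 16 adhesion and matrix genes 10 were higher and 4 at least 2 higher (median 0.96): Sparc, a matrix protein of glia (2.76), the tetraspanins Cd81 (2.30) and Cd9 (2.20), and Sparcl1 (2.18). The median of the adhesion and matrix list was 0.69 without marked libraries and 0.09 in the smaller set, where Sparc differed by 0.35. Of 17 fatty acid oxidation genes 12 were higher and 1 at least 2 higher (median 0.40). That was Acadvl, the very long chain acyl-CoA dehydrogenase, with a highest value of 1558 TPM at the high end and 31.8 TPM at the low end, and it differed by 2.50, 2.86 and 3.02 in the 3 sets of libraries. Glycolysis had 8 of 16 genes higher and a median of 0.05, with Aldoc and Aldoa (3.14) at its top and Pfkl, a phosphofructokinase, at -1.25.

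Signalling lists showed single genes rather than a common shift. Of 11 Notch genes 5 were higher (median -0.03) and Notch2 alone was at least 2 higher. Of 12 BMP and Id genes 7 were higher (median 0.02), with Id4 at 3.07 and Bmpr1a, a BMP receptor, at -1.42. Of 13 Wnt genes 7 were higher (median 0.04), with the nuclear effector Tcf7l2 at 2.08. Of 9 growth factor receptors 6 were higher (median 0.20), and of 7 hedgehog genes 4 (median 0.45). The hedgehog median was -0.10 without marked libraries and -0.75 in the smaller set. The lists for fatty acid synthesis (14 genes), cholesterol synthesis (21 genes) and lysosome (17 genes) had medians of -0.11, 0.24 and 0.30, beside -0.23 over all genes. For 14 cell cycle inhibitors and quiescence genes it was -0.30, and for 21 immediate early and heat shock genes -0.36.

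Outside the lists, the genes furthest above the low end among those seen in most eCFP-high cells included several metabolic enzymes and carriers. Slc25a18, a mitochondrial glutamate carrier, had medians of 486 and 2.81 TPM and a difference of 3.88. Gstm3, another glutathione transferase, had medians of 262 and 11.6 TPM and a difference of 3.82, with 12 eCFP-low libraries below every eCFP-high one. Naaa, a lysosomal amidase, differed by 3.72, Cmtm5, a membrane protein, by 3.66, Itih3, an inter-alpha-trypsin inhibitor chain, by 3.39, and Ddah1, which breaks down methylated arginine, by 3.39. Ass1, the argininosuccinate synthase (3.33), Pir (3.19), the lipid phosphatase Ppap2b (3.16) and Thrsp, a protein tied to lipid synthesis (3.08), completed the 10. In the smaller set Itih3 (3.06), Pir (2.93) and Slc25a18 (2.66) differed by at least 2 and the other 7 by -0.19 to 1.56.

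**Figure D3:**
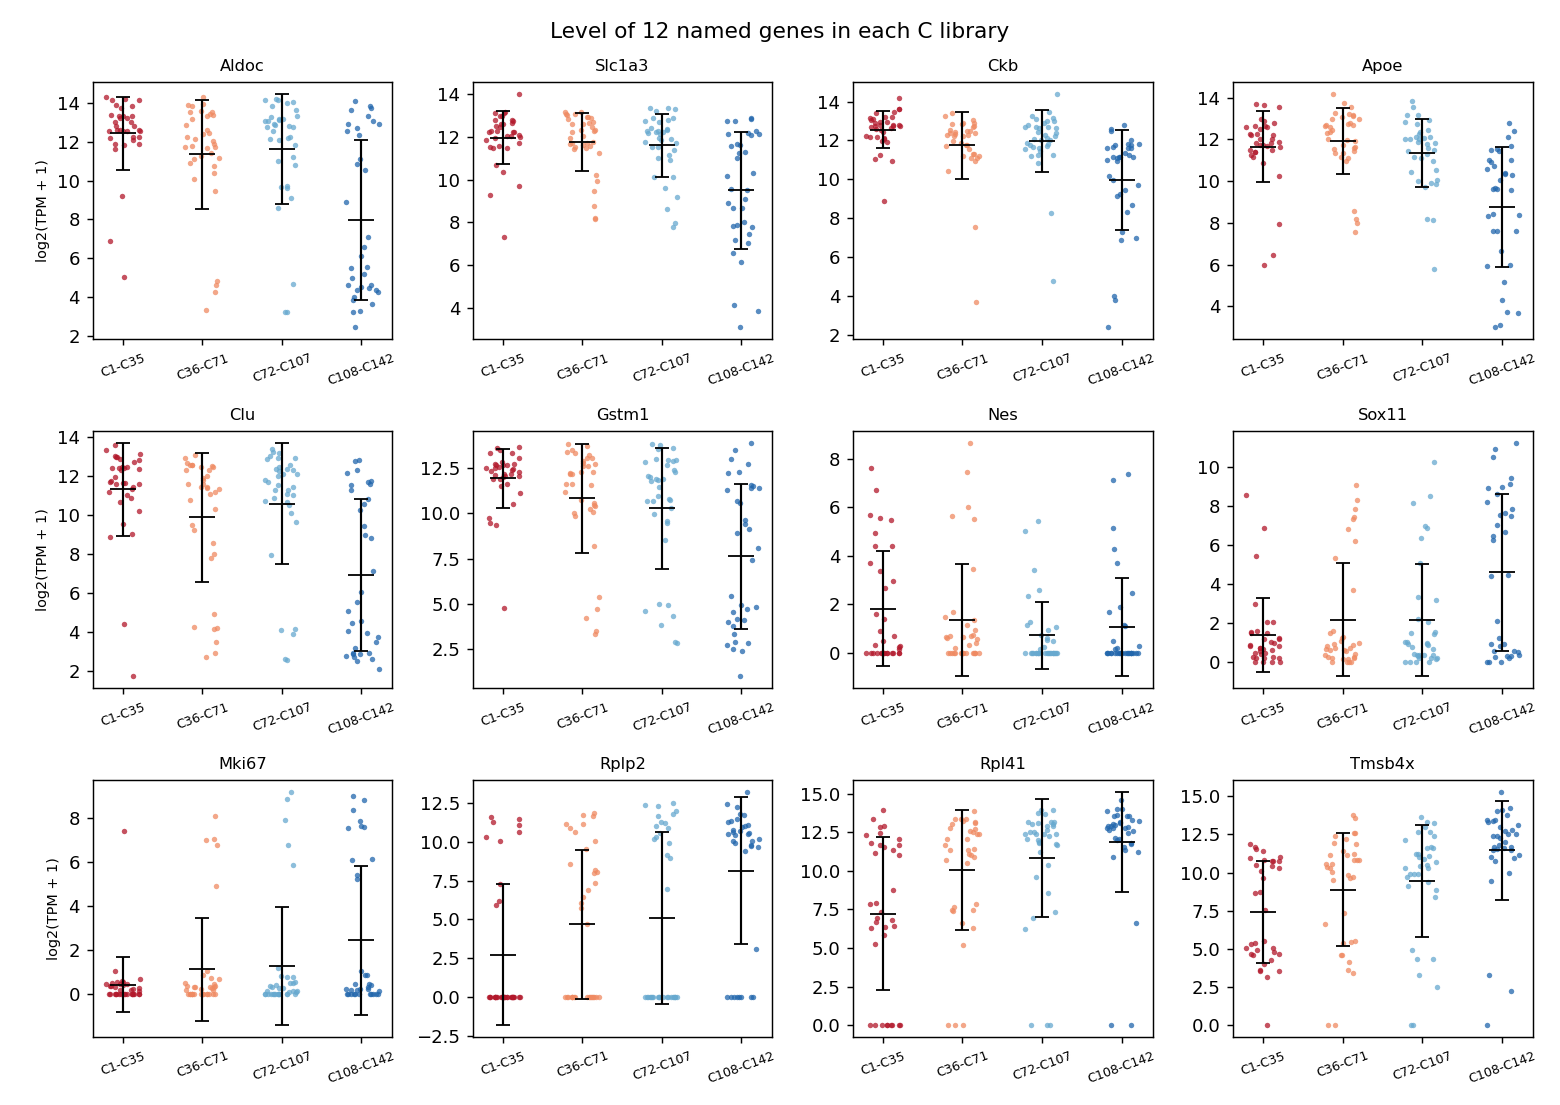
Level, as log2(TPM + 1), of 12 named genes in each C library by group, with the mean and SD between cells. Aldoc, Clu and Gstm1 are high in most libraries of the 3 upper groups and spread from high to low values in C108 to C142, and Rplp2 is listed at 0 in most of C1 to C35.

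Genes of intermediate progenitors and of the neuronal path were lower at the eCFP-high end. Of 12 progenitor genes 11 were lower and 2 at least 2 lower, against 1.85% of all genes (list median -1.29). Sox11, a factor of progenitors and young neurons, ran from 0 to 374 TPM (median 0.74) in C1 to C35. In C108 to C142 it ran from 0 to 2384 TPM (median 20.8), a difference of -3.22. The difference was -2.99 without marked libraries, but the medians there were 0.635 and 0.365 TPM (seen in 10 of 30 and 5 of 12). In the smaller set it was -1.16, with medians of 0.635 and 0.26 TPM (10 of 30 and 2 of 8). Both of these mean differences thus rested on few eCFP-low libraries. Eomes, the T-box factor that defines intermediate progenitors, was seen in 6 and 11 of 35 libraries. Its highest value was 20.4 TPM at the high end and 2744 TPM at the low end, 10 eCFP-low libraries lay above all eCFP-high ones, and the difference was -1.49 (-1.27 without marked libraries and 0.66 in the smaller set). Ccnd2, the cyclin of neural progenitors, had medians of 21.3 and 159 TPM and a difference of -1.26 (-0.84 and 0.20). The median of the progenitor list was -1.05 without marked libraries and 0.19 in the smaller set, from which libraries high in that list had been left out.

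Markers of later neurons were low in most libraries of both ends. Of 13 neuroblast genes 12 were lower and 2 at least 2 lower (median -0.56), and of 12 mature neuron genes 12 were lower and 1 at least 2 lower (median -0.75). Dcx, the doublecortin of neuroblasts, was seen in 0 eCFP-high and 4 eCFP-low libraries, where it reached 220 TPM. Dpysl3, a protein of growing axons, had a difference of -2.66 and Snap25, of the synaptic vesicle machinery, of -2.0. Both were near 0 in the smaller set (0.09 and 0.26). The lists of oligodendrocyte precursors (8 genes, median -0.74), oligodendrocytes (11 genes, -0.02), endothelial (5 genes, -0.41), mural (6 genes, -0.12), microglial (6 genes, -0.32), inhibitory neuron (4 genes, -0.10) and erythroid cells (4 genes, -0.34) had 0 members past 2 in either direction.

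Cell cycle genes were lower at the eCFP-high end without exception: 21 of 21 S phase genes and 21 of 21 genes of G2 and mitosis had a lower mean, against 66.5% of all genes. Of these 5 and 1 were at least 2 lower, and the medians were -1.09 and -1.47. Mki67, a marker of dividing cells, was seen in 2 of 35 eCFP-high libraries (5.71%, exact 95% interval 0.70 to 19.2) and in 12 of 35 eCFP-low ones (34.3%, 19.1 to 52.2). Its highest value was 170 TPM at the high end and 504 TPM at the low end, and the difference was -2.0. Rrm2, a subunit of ribonucleotide reductase, reached 7.92 TPM at most in C1 to C35 and 2205 TPM in C108 to C142, with 10 eCFP-low libraries above all eCFP-high ones. Top2a, the mitotic topoisomerase, differed by -2.0 over all libraries and by 0.22 without marked ones, where 11 of 21 mitosis genes were higher. That exclusion removed the dividing libraries by these same genes.

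The protein-making and protein-degrading machinery was lower at the eCFP-high end. Of 75 measured genes of the cytosolic ribosome 73 were lower and 18 at least 2 lower (median -1.41), and 2, Rps4x (1.45) and Rps27a (0.05), were higher. Over all genes 66.5% were lower and 1.85% at least 2 lower. The list level averaged 6.48 ± 1.41 in C1 to C35, 7.14 ± 1.77 and 6.95 ± 1.65 in the middle groups and 8.04 ± 1.76 in C108 to C142, so the ends differed by about the SD between cells. Of 25 translation factors 24 were lower (median -1.02), of 27 proteasome genes 26 (-1.24), of 24 splicing genes 20 (-1.08) and of 15 nuclear transport and lamina genes 15 (-0.70). Without marked libraries the ribosome list had 55 of 75 members lower (median -0.92), and in the smaller set 50 of 75 (-0.60). Of all genes 49.4% were higher without marked libraries and 52.5% in the smaller set. In the smaller set the translation factors (-0.89) and splicing genes (-0.63) also had negative medians, while the proteasome had 13 members higher and 14 lower (-0.46) and nuclear transport and lamina 8 higher and 7 lower (0.02).

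Rplp2, which encodes an acidic protein of the ribosomal stalk, had the largest difference of any gene named here. It was seen in 10 of 35 eCFP-high and 27 of 35 eCFP-low libraries, with medians of 0 and 1405 TPM and highest values of 3121 and 9560 TPM. The difference was -5.39, and it was -4.83 without marked libraries and -5.29 in the smaller set. Rpl41, which encodes the smallest ribosomal protein, had medians of 164 and 7158 TPM and a difference of -4.66, then -5.46 and -5.69. In the smaller set it averaged 7.03 ± 4.97 (n = 30) and 12.72 ± 0.74 (n = 8). Rplp2 was high in some cells and not seen in others at both ends, which makes its SDs wide. Rpl41 was seen in 22 of the 30 eCFP-high and all 8 eCFP-low libraries of the smaller set, and its SD was wide at the high end only. Ribosomal protein genes have many near-identical copies among which the authors' estimates divide reads, so single values are uncertain.

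Among other abundant transcripts of small proteins, the lowest members of the splicing, oxidative phosphorylation and cytoskeleton lists were lower as well. Others, such as Mt1 (2.46) and Mt3 (2.32), were higher. Snrpd2, a core protein of the spliceosome, was seen in 15 and 28 of 35 libraries with medians of 0 and 765 TPM, a difference of -4.28 (-4.50 in the smaller set). Cox6c, a subunit of cytochrome oxidase, had medians of 73.2 and 1651 TPM and a difference of -3.23 (-3.63). Tmsb4x, the actin-binding thymosin beta 4, ran from 0 to 3727 TPM (median 182) at the high end and from 0 to 40550 TPM (median 4916) at the low end, with 19 eCFP-low libraries above all eCFP-high ones. It had the lowest rho with the eCFP row, -0.44, but its difference of -4.04 was -0.25 in the smaller set. Of the genes with the 5 lowest rho, Rpl41 (-0.41), Cox6c (-0.34), Hnrnph2 (-0.32) and Atp5l (-0.32) were the others.

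Oxidative phosphorylation was lower as a list (40 of 47 members, 8 at least 2 lower, median -0.99), but less so without marked libraries, where 23 members were higher and 24 lower (median -0.11). Its members ran in both directions: Cox6c was lowest, and Ndufb10, a subunit of complex I, was 1.25 higher (4.05 in the smaller set). Chromatin genes were lower in 18 of 23 cases (median -0.99), and their median was -0.85 without marked libraries and -0.09 in the smaller set. Hmgb3, a high mobility group protein, had medians of 1.35 and 179 TPM and a difference of -3.86, and the histone variant H2afz had -3.68. H2afx, the variant tied to DNA damage, was 1.28 higher.

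Cytoskeletal genes included members at both extremes. Of 18 genes 15 were lower and 5 at least 2 lower (median -1.13), and 2 were at least 2 higher. The list median was -0.90 without marked libraries and -0.28 in the smaller set. Tmsb4x, its relative Tmsb10 (-3.48), the tubulin Tubb5 (-2.83), Marcks (-2.45) and Stmn1, a microtubule-destabilising protein of young cells (-2.19), were at the low extreme. The tubulins Tubb2a (2.35) and Tubb2b (2.07) were at the high extreme, and Tubb2a differed by 2.40 in the smaller set as well, where Stmn1 differed by 0.97. Of the controls, Gapdh differed by 0.34, less than the SD between cells, and Actb by -0.57, beside SDs of 0.55 at the high end and 0.79 at the low end.

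Outside the lists the 10 lowest genes included single genes of the ribosome, of mitochondria and of the cell cycle machinery, among others. Anapc13, a subunit of the anaphase-promoting complex, was seen in 8 and 22 of 35 libraries and differed by -4.25. Rbm3, a cold-inducible RNA-binding protein, and the predicted gene Gm12191 had -3.40 each, and Ndufb4, a subunit of complex I, and Ppdpf -3.33 each. Dctpp1, a nucleotide pyrophosphatase (-3.27), Rpl22l1, a ribosomal protein paralogue (-3.22), the calmodulin gene Calm2 and the 14-3-3 gene Ywhah (-3.08 each) and the predicted gene Gm6793 (-3.0) were the others. Of these Ndufb4 (-4.63), Gm12191 (-3.18), Anapc13 (-2.98) and Ppdpf (-2.32) still differed by at least 2 in the smaller set, and Calm2 differed by -0.02.

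**Figure D4:**
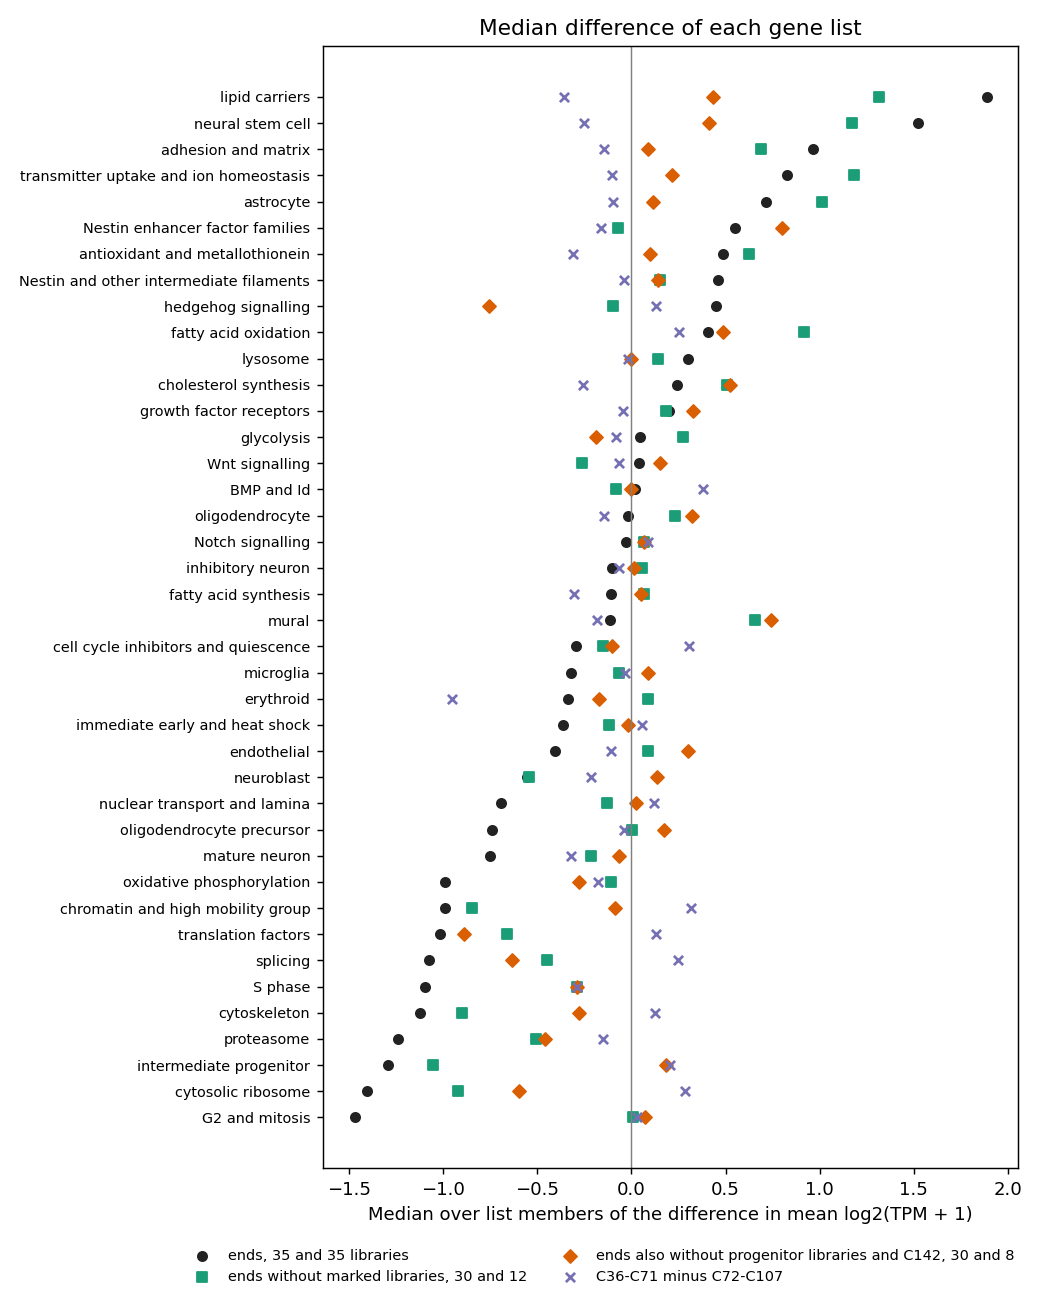
Median over the members of each of 40 gene lists of the difference in mean log2(TPM + 1), for the ends with all libraries (35 and 35), without marked libraries (30 and 12), and also without progenitor libraries and C142 (30 and 8), and for C36 to C71 minus C72 to C107. The stem cell list moves from 1.52 to 1.17 and 0.41 and the mitosis list from -1.47 to 0.01 and 0.07, while the ribosome list stays below 0 at -1.41, -0.92 and -0.60.

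By the share of cells, Setd5, a SET-domain protein, separated the ends most among the genes named by share. It was seen in 2 of 35 eCFP-high libraries (5.71%, exact interval 0.70 to 19.2) and in 20 of 35 eCFP-low ones (57.1%, 39.4 to 73.7). The genes of this paragraph were named for the size of this gap. The intervals cover counting error only and not that choice, so they lend the gap no support. Without marked libraries Setd5 was seen in 2 of 30 and 5 of 12, and in the smaller set in 2 of 30 and 3 of 8. Ppdpf was seen in 8 and 24 libraries, Sltm, an RNA-binding protein, in 9 and 24, and Itfg1 and Phf20l1 in 6 and 21 each. In the other direction Trap1, a mitochondrial chaperone, was seen in 25 and 10 libraries. Slc25a11, the mitochondrial oxoglutarate carrier, was seen in 25 and 11, Sra1 in 24 and 10, Itih3 in 30 and 16, and 4930429D17Rik in 16 and 2. A gene seen at 1 TPM may rest on few reads, and how many cannot be told from TPM.

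The genes at least 2 apart between the ends had shorter transcripts, by the median, than all tested genes. The longest transcript of a gene in GENCODE M21 had a median of 3383 bases over all tested genes with a match, 2851.5 bases for genes seen in at least 50% of the C libraries, 2546 bases for the 95 genes higher at the eCFP-high end and 2187 bases for the 222 lower ones. Among genes seen in at least 50% of the C libraries, the 475 shortest (319 to 1569 bases) had a median difference of -0.51, with 56 at least 2 lower and 23 at least 2 higher. The medians of the 4 longer length classes lay between -0.35 and -0.24, with 15 to 24 genes at least 2 lower in each. In the middle groups the shortest class had a median of 0.09, within the range of the others (0.06 to 0.16). Whether length plays a part in the differences was not tested.

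**Figure D5:**
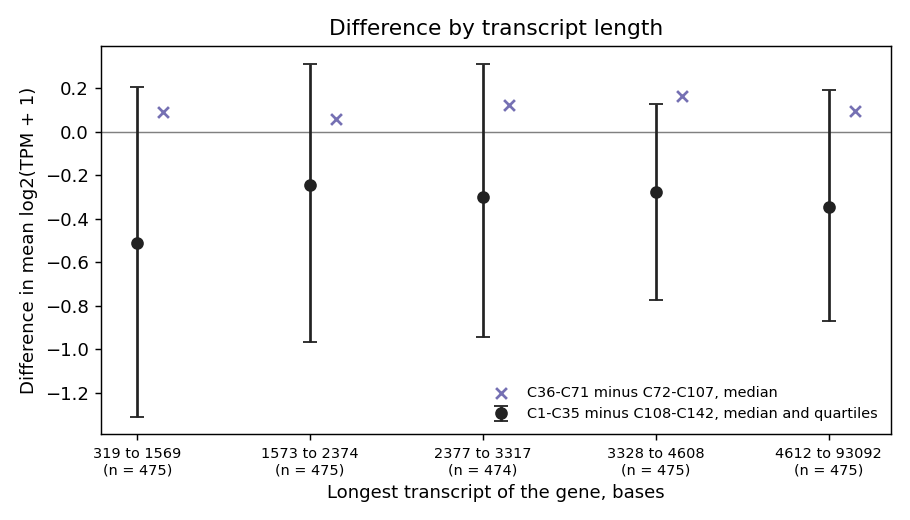
Difference in mean log2(TPM + 1) between the ends in 5 equal classes of transcript length, for genes seen in at least 50% of the C libraries (median, with quartiles as bars), and the median for the middle groups as crosses. The shortest class lies lowest, at -0.51, and the other 4 between -0.35 and -0.24.

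What differed between the ends depended on which cells of the low end were kept. All 95 higher genes kept their sign without marked libraries and 52 stayed at least 2 higher, and of the 222 lower genes 211 kept their sign and 85 stayed at least 2 lower. Over all genes tested, 1.25% were at least 2 higher without marked libraries and 1.97% at least 2 lower, with 49.4% higher at any size. The 95 and 222 genes were chosen by their difference over all libraries, and both smaller sets are parts of those libraries. That most kept their sign therefore follows in part from the choice. In the set of 30 and 8, 80 of the 95 kept their sign and 19 stayed past 2, and 190 and 80 of the 222. There 1.43% of all genes were at least 2 higher, 3.58% at least 2 lower and 52.5% higher at any size. With 8 libraries at the low end, from animals that are not named, single differences there are imprecise: the count of genes past 2 was 172 higher and 430 lower. Clu, Itih3, Pir, Slc25a18, Acadvl and Tubb2a at the high end, and Rplp2, Rpl41, Snrpd2, Cox6c, Ndufb4 and Fabp5 at the low end, were among the named genes that were at least 2 apart in all 3 sets.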

How the data were processed

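Libraries of single cells followed NuGEN Ultralow V2, per the labels' protocols. The authors deposited 1 table of TPM per gene for 172 libraries, for which the submitters' processing notes name RSEM and mm9. Versions, aligner and filters: not given in the sources used here. The column C27 fits 2 of the 173 titles and was used as 1 eCFP-high library. Of all values 78.5% were listed at 0, which can be a failed estimate.

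The members, the gene lists and the size rules were chosen with earlier results of these data known. Values were taken as log2(TPM + 1), and differences on that scale understate changes of low genes. Means were subtracted between groups for 12006 of 23307 genes. No p-value was computed. The 42 lists (690 genes) had 40 with at least 3 measured genes, while the lists of ependymal cells and fibroblasts had too few. Named genes were 20 set genes, the highest and lowest member of each list, the 10 highest and 10 lowest differences outside the lists, the 5 highest and lowest shares, and the 5 highest and lowest rho, 125 in all, of which some are not reported here. Other list members given were chosen after their values were seen. Transcript lengths came from GENCODE M21 on another build than mm9, matched by symbol, and no coordinate was used. Python 3.11.15 with numpy 2.4.6, pandas 2.3.3 and scipy 1.17.1 was used, and the functions were tested on real libraries with planted changes. Alternatives were other pseudocounts, filters, scalings, group sizes and sets of libraries.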

Additional observations from a re-analysis of the deposited data

How the results depend on the processing

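The counts of genes at least 2 higher (95) and at least 2 lower (222) at the eCFP-high end depended on how the difference was taken and on the size of the groups. They were 199 and 599 with a pseudocount of 0.1, 31 and 41 with a pseudocount of 10, 967 and 1983 as a log2 ratio of mean TPM, and 148 and 513 as a difference of medians. A threshold of 1 gave 409 and 1555 genes and one of 3 gave 18 and 27. Ends of 20 libraries gave 168 and 416 genes, and the C libraries split at the middle 7 and 17. The counts by share were 346 and 1054 with ends of 20 and 7 and 19 with the split at the middle, and 69 genes were seen in more cells at a TPM of at least 10.

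Without libraries of other cell types 253 genes were seen in at least 25 points more cells, and without both kinds of marked library 362 more and 563 fewer, with 150 genes at least 2 higher. Without progenitor libraries and C142 as well, an alternative chosen after seeing the data, the counts were 172 and 430 by level and 668 and 741 by share, where fewer libraries make shares coarser. The other 39 counts stayed within 1.5 times, among them those with libraries rescaled, without the eCFP row, without C27 and without C142 (also chosen after seeing the data).

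Top2a changed sign without cycling libraries (0.18), without both kinds (0.22) and in the smaller set (0.38). In the smaller set Aldoc (-0.32), Ass1 (-0.19), Dpysl3 (0.089), Gfap (-0.49), Gja1 (-0.25), Hopx (-1.24), Snap25 (0.26) and Stmn1 (0.97) changed sign too, counting only genes at least 2 apart over all libraries. Of the named genes with smaller differences, Eomes (0.66), Ccnd2 (0.20), Vim (-1.11) and Dcx (0.09) were among those that did. The cause was not tested beyond the libraries left out. No paired analysis was possible because no group pairs with another and the result comes from no test. Depth is unknown, no animal is named, and the spread is that between cells.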

Other observations

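The middle libraries gave values of their own. Calm2, a calmodulin gene, averaged 6.17 in C36 to C71 and 8.46 in C72 to C107 on the log2(TPM + 1) scale, a difference of -2.30 beside -3.08 at the ends. Cnp, an enzyme of myelinating cells also present in other glia, had -2.0 in the middle and 0.54 at the ends. Within the 36 libraries of C72 to C107 the stem cell list had a Spearman rho of -0.32 with the eCFP row and the list for G2 and mitosis 0.30, while over all C libraries the values were 0.30 and -0.16. Within C1 to C35 the progenitor list had a rho of -0.46. These values share libraries with the comparisons of the report and carry no test.

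Close relatives went in opposite directions between the ends. Fabp7 was 1.82 higher beside Fabp5 at -2.21, Tubb2a 2.35 higher beside Tubb5 at -2.83, and H2afx 1.28 higher beside H2afz at -3.68. Such relatives share sequence, and how the authors' estimates divided their reads is not known.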
